A study of Drosophila melanogaster with 2 samples.

Results

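The regions described here are 1038 places in the fly genome where tagged ERR gave a signal in both replicates of a chromatin immunoprecipitation with sequencing (ChIP-seq) experiment, but which fall below the cutoff of the authors' optimal peak set. They were chosen by rank and overlap. The 30000 regions called from the pooled replicates were sorted by the peak caller's signal, and the ranks from directly after the 2892 optimal peaks to 6000 were taken. Of these 3108 regions, 169 overlapped an optimal peak and were set aside. Of the 2939 left, 1038 (35.3%) overlapped by at least 1 bp one of the 6000 highest regions of replicate 2 and one of the 6000 highest regions of replicate 3, and are called sub-cutoff regions from here on. Another 987 were found in the top 6000 of replicate 2 alone, 781 in that of replicate 3 alone and 133 in neither. These 1901 unrecovered regions of the same ranks, and the optimal peaks, are the 2 sets used for comparison.

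The experiment used whole Drosophila melanogaster embryos of both sexes, collected 0 to 24 h after laying, from a transgenic line that stably expresses ERR with green fluorescent protein (GFP) fused to its C-terminus. Chromatin was sonicated to a stated size range of 200 to 800 bp and precipitated with an antibody against GFP. There were 2 biological replicates, numbered 2 and 3, and no second group, so no treatment or genotype was compared. Every cell type of the embryo was mixed in 1 sample, and both replicates carried the tagged protein, so the cells a region comes from cannot be told. Each dm6 list of single-replicate or pooled regions held 30000 entries, and the read depth of the libraries is unknown.

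ERR is the fly member of the oestrogen-related receptors, nuclear receptors that bind DNA without a known natural hormone. It recognises an extended single receptor site, TNAAGGTCA. In the fly embryo it is known for switching on genes of glycolysis and related sugar metabolism ahead of larval growth, and its mammalian relatives act on mitochondrial genes together with the coactivator PGC-1.

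The letters of the ERR site occurred within 100 bp of the summit, on either side, in 19 sub-cutoff regions. The sites of 6 of them are shown, since this is the motif closest to the factor under study. Their centres lay within 39 bp of the summit. The sites of PGRP-LD, Ziz and Hap40, which are not printed, lay 90, 96 and 77 bp from it. The 6 therefore do not represent the distances of all 19. Each is printed 5' to 3' from the dm6 genome (NCBI release 6) on the strand that carries the site, with the site in capitals. They lie at chr2L:1636549-1636577 (minus strand, chinmo), chrX:7285207-7285235 (plus strand, CG1677), chrX:8682261-8682289 (plus strand, CAH3), chr3L:18799004-18799032 (plus strand, ftz-f1), chr2L:2734328-2734356 (minus strand, CG31689) and chr3L:18016591-18016619 (plus strand, Eip75B).
chinmo: gtgttggtgcTCAAGGTCActccgttgtc
CG1677: gaaacgaaagTCAAGGTCAaaagccccca
CAH3: aacgtccatgTGAAGGTCAactatgaccc
ftz-f1: aaggtcaggtTGAAGGTCAggtcgcagag
CG31689: ttgctttgcaTTAAGGTCAagctattttc
Eip75B: atttcgaagtTCAAGGTCAgtaaacttgc
Sites of 2 promoter factors are shown as well, since both were commoner at summits than 1 kb away. Sites of DREF (TATCGATA), known for its role at genes of growth and DNA replication, are shown for CG32767 at chrX:5084776-5084803 and Pep at chr3L:17645059-17645086, both on the plus strand. Sites of M1BP (GGTCACACT), a factor of housekeeping promoters, are shown for srl at chr3R:4429320-4429348 on the minus strand and ari-1 at chrX:18137150-18137178 on the plus strand.
CG32767: caacagtcacTATCGATActttgtaggt
Pep: gtgcgcgaagTATCGATAaaagtaattt
srl: gcgcgcccctGGTCACACTgtctgtgccg
ari-1: taagaagaacGGTCACACTggcccgtgcg

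In all, 6 sub-cutoff regions held more than 1 of the ERR, DREF, M1BP and GAF motifs. The whole window, the summit with 100 bp on either side, is printed for 3 of these, to show how the sites sit together, with the motifs in capitals and the plus strand of dm6 throughout. The Eip75B window at chr3L:18016534-18016734 and the CycG window at chr3R:31605863-31606063 each lie in an intron and pair an ERR site with GAGAGAG, the site of GAGA factor (GAF), read on the minus strand in Eip75B. The dsh window at chrX:11355664-11355864 lies at a promoter and pairs GAGAGAG with an M1BP site read on the minus strand.
Eip75B: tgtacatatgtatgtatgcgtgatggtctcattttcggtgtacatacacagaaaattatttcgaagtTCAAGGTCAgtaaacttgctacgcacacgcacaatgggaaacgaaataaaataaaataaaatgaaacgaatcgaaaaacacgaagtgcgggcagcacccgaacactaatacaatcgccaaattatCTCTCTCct
CycG: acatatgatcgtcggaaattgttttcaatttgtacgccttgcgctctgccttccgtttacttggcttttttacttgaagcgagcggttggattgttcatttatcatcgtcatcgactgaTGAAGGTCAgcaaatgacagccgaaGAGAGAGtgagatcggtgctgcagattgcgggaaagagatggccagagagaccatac
dsh: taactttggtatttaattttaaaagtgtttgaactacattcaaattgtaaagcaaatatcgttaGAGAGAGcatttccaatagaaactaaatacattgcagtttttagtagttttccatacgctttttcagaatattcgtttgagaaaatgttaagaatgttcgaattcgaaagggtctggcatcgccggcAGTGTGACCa

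The signals that chose the regions span a narrow range. Pooled signal, in the caller's units as the authors deposited it, ran from 46.2 to 69.2 with a median of 60.7, against medians of 97.8 in the optimal peaks and 52.0 in the unrecovered regions of the same ranks. In replicate 2 the signal of the matched region ran from 27.5 to 69.96 with a median of 33.5, and in replicate 3 from 22.7 to 51.999 with a median of 28.0. The signal was higher in replicate 2 for 798 regions (76.9%), with a median ratio of 1.20, but the lists are not scaled to each other. These values entered the choice and are given without a test. The deposited −log10 q-value was at 3.89, the value shared by all optimal peaks, in 621 of the regions (59.8%) and otherwise reached down to 2.71.

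The boundary with the optimal set is a step of signal in a continuous ranking. The last optimal peak had a pooled signal of 69.1836 and the first sub-cutoff region, in an intron of CG42258 (X, 12466450 to 12466853), had 69.1804. At the other end, the last sub-cutoff region was at rank 5964 with a signal of 46.2268, at the promoter of Tsp42Eo, a tetraspanin gene, and the first pooled region past the band had 46.0871. In replicate 3 the limit fell between 22.7367 and 22.7349, with an intronic region of Pvf3, which encodes a growth factor of the PDGF and VEGF family, inside at rank 6000 and a promoter region of CG12204 outside at 6001. In replicate 2 the limit fell between 27.522 and 27.5191. The sub-cutoff region closest to it, in an intron of CG17734, was at rank 5997.

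Recovery in both replicates fell along the pooled list through the band. Of each 500 pooled regions, 99.8% were found in the top 6000 of both replicates at ranks 1 to 500, 83.8% at ranks 2501 to 3000, 39.2% at 4001 to 4500 and 11.8% at 5501 to 6000. Past the band the share was 11.4% at ranks 6001 to 6500, and from rank 7001 it rose and fell between bins, with 7.20% at 7001 to 7500, 7.60% at 9501 to 10000 and 5.40% at 11501 to 12000. The sub-cutoff regions were therefore concentrated at the upper end of their band, with 824 of the 1038 at rank 4446 or better.

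**Figure D1:**
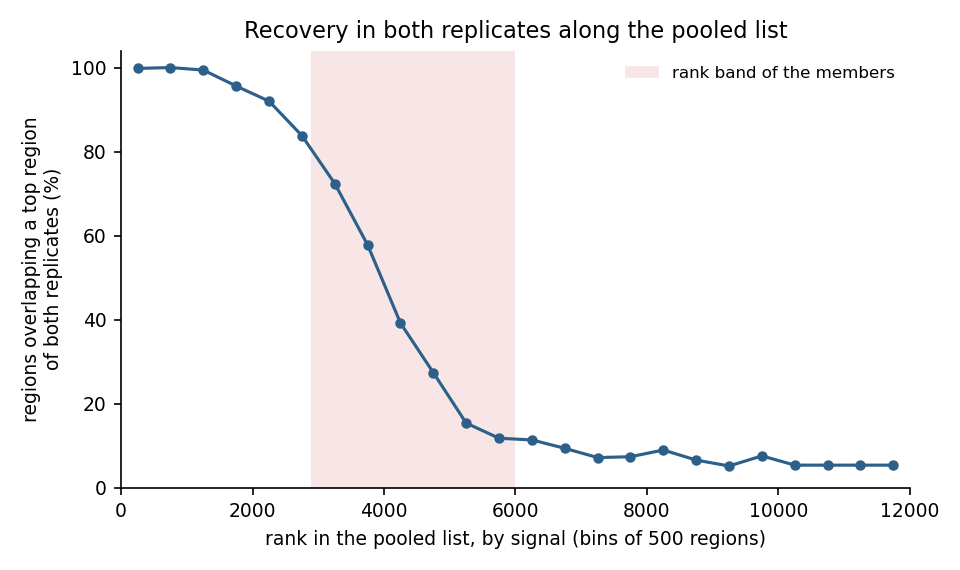
Share of pooled regions, in bins of 500 ranks, that overlapped one of the 6000 highest regions of both replicates. The share fell from 83.8% at ranks 2501 to 3000 to 11.8% at ranks 5501 to 6000, across the shaded rank band from which the sub-cutoff regions were chosen.

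Seen in each replicate, most of these regions also ranked below the size of the optimal set. The median rank was 4245.5 in replicate 2 and 3949 in replicate 3. In replicate 2, 120 regions were at rank 2892 or better, in replicate 3, 226 were, and 715 were so placed in neither. Only 23 (2.22%) reached that rank in both replicates. They include the promoters of ACC, which encodes acetyl-CoA carboxylase, the enzyme that commits acetyl-CoA to fatty acid synthesis, of Rab5, an early endosome GTPase, and of ttk, a zinc-finger repressor of neural fate. At ACC (FBgn0033246; 2R, 7983990 to 7984393) the signal was 42.0 in replicate 2 and 34.2 in replicate 3. At Rab5 (2L, 2363588 to 2363991) it was 53.2 and 33.3, and at ttk (3R, 31725486 to 31725889) 52.9 and 33.1. The replicate 3 summit lay 121 bp from the pooled one at Rab5 and 112 bp at ttk, but 6 bp at ACC. High rank in both replicates therefore need not mean that both summits mark the same site. Regions at Ada2b and at Chd64 entered the 23 more than once on the same replicate regions. Rab5, ttk, Ada2b and Chd64 were named after these values were seen.

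The positions of the summits were close between lists. In 722 regions (69.6%) both replicate summits lay within 100 bp of the pooled one, and the median offset was 17 bp in replicate 2 and 26.5 bp in replicate 3. The offsets were smaller in optimal peaks, with medians of 8 and 15 bp, and in unrecovered regions that overlapped any region of the replicate, with 13 and 18 bp. A width of 404 bp was given to 1035 of the 1038. The regions are not all separate sites. 76 overlapped another sub-cutoff region, and the 1038 drew on 1000 regions of replicate 2 and 1003 of replicate 3. In 5 regions a matched replicate region also touched an optimal peak.

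**Figure D2:**
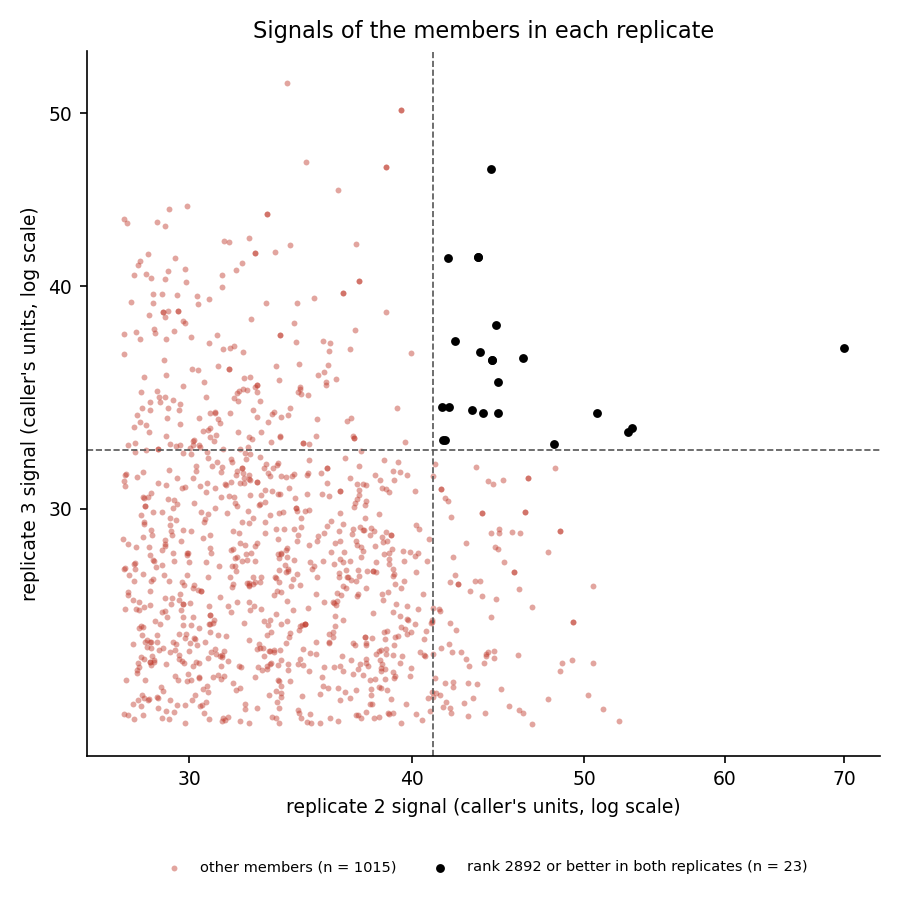
Signal of the matched region in replicate 2 (x axis) and replicate 3 (y axis), both in the peak caller's units on log scales, for each of the 1038 sub-cutoff regions (members). Dashed lines mark the signal at rank 2892 of each replicate, and the 23 black points lie past both; the lower edges of the cloud are the rank limits of 6000 used to choose the regions.

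Most sub-cutoff summits lay at gene starts, as did most optimal peaks. A summit was within 500 bp of an annotated transcript start in 627 of 1038 regions (60.4%, 95% Wilson interval 57.4 to 63.3) and in 62.0% of optimal peaks (60.2 to 63.8), an odds ratio of 0.934 (Fisher's exact test, two-sided, adjusted p = 0.625 over 6 location classes). By the same exact test, introns held 27.6% against 26.8% (adjusted p = 0.625), and intergenic sequence and other exons 8.86% against 9.47% (adjusted p = 0.625). Coding sequence held 10 regions (0.963%) against 0.242% of optimal peaks, an odds ratio of 4.01 (exact test, adjusted p = 0.0282). That difference missed the threshold under reciprocal overlap of 50% (exact test, adjusted p = 0.0892), summits within 100 bp (0.303), promoters of 1000 bp (0.132) and regions over 2 kb from an optimal peak (0.238), and turned around in the higher-signal 50% of the regions (odds ratio 0.796). All these p-values are over regions, which are not replicates, so they describe these lists.

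The unrecovered regions of the same ranks lay less often at gene starts. Their promoter share was 51.4%, an odds ratio of 1.44 in favour of the sub-cutoff regions (Fisher's exact test, two-sided, adjusted p = 1.96e-05). Their intron share was 33.6% against 27.6% (odds ratio 0.755, exact test, adjusted p = 0.00266) and their coding share 2.37% against 0.963% (odds ratio 0.401, adjusted p = 0.0130). The unrecovered regions also had lower pooled signals, with a median of 52.0 against 60.7, so the band was also divided by rank. At ranks up to 4446 the promoter shares were 60.9% and 55.0% (odds ratio 1.28, Fisher's exact test, adjusted p = 0.0670). Past 4446 they were 58.4% and 49.6% (odds ratio 1.43, Fisher's exact test, adjusted p = 0.108), so neither division passed the threshold. The coding difference passed in neither, with odds ratios of 0.789 (Fisher's exact test, adjusted p = 0.859) and 0.851 (Fisher's exact test, adjusted p = 0.836). The intron difference passed up to 4446 (odds ratio 0.735, Fisher's exact test, adjusted p = 0.0440) but not past it (odds ratio 0.794, Fisher's exact test, adjusted p = 0.271). The promoter difference missed the threshold with the top 10000 of each replicate (odds ratio 1.06, exact test, adjusted p = 0.798), and it turned around when replicate 3 alone defined recovery (odds ratio 0.964, adjusted p = 0.810).

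**Figure D3:**
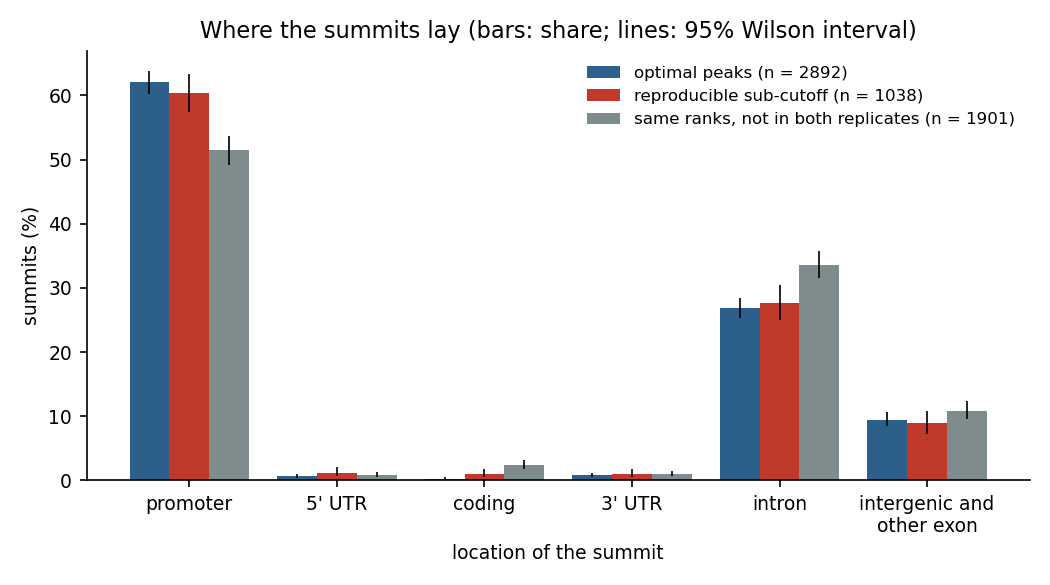
Percentage of summits in each location class for the optimal peaks, the sub-cutoff regions and the unrecovered regions of the same ranks, with 95% Wilson intervals that cover counting error over regions. The promoter bars stand at 62.0%, 60.4% and 51.4%.

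Motifs were counted in the window of 100 bp on either side of each summit, on both strands, and set beside windows 1 kb up- and downstream of the same regions. The ERR site was in 1.83% of sub-cutoff windows (1.17 to 2.84) and in 0.578% of those 1 kb away. Its core AAGGTCA, which every ERR site contains, was in 3.56% and 2.22%. DREF's site was in 54 windows, 5.20% (4.01 to 6.73) against 0.578%. M1BP's site, which shares the letters GGTCA with the ERR core, was in 2.89% against 0.482%, and GAF's in 83 windows, against 3.61% of those 1 kb away. In all 30000 pooled regions the same windows held the ERR site in 1.02%, the DREF site in 2.02%, the M1BP site in 1.27% and the GAF site in 5.11%. At least 1 of these 4 motifs was found in 180 sub-cutoff regions (17.3%), so most had none of them. The same held for optimal peaks, with 16.6%, and for the unrecovered regions of the same ranks, with 15.1%.

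No motif share passed the test against the optimal peaks. Optimal windows held the ERR site in 1.63%, DREF's in 5.53%, M1BP's in 2.84% and GAF's in 7.30%. None of 16 motifs passed (Fisher's exact test, two-sided, lowest adjusted p = 0.842), and 0 had an unadjusted p under 0.05. Against the unrecovered regions none passed either (exact test, lowest adjusted p = 0.470), with 1 motif at an unadjusted p under 0.05. That motif was DREF's, at 5.20% against 3.58% (odds ratio 1.48), and with windows of 250 bp on either side its odds ratio was 1.73 (Fisher's exact test, adjusted p = 0.00379). Between the higher- and lower-signal 50% of the sub-cutoff regions none passed (exact test, lowest adjusted p = 0.990), with 0 at an unadjusted p under 0.05. Small shares limit these tests, since the interval of the ERR share alone spans 1.17 to 2.84%.

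The other motifs searched included those of the GATA family (AGATAAG), Mef2 (CTATTTATA) and Hnf4 (CAAAGTCCA). Next came the E-box (CACGTG), the hypoxia element (ACGTG), which the E-box contains, and the site of Zelda (CAGGTAG). The last were those of AP-1 (TGANTCA), CRE (TGACGTCA), the TATA box (TATAAAA), E2F (GCGCGAAA) and Pho (GCCATNTT). The GATA motif was in 2.70% of sub-cutoff windows and 2.36% of those 1 kb away, and the TATA motif in 9.06% and 9.20%. Zelda's motif, bound by the activator of the early zygotic genome, was in 0.578% and 1.45%. Hnf4's was in 0 of 1038 windows, which allows a share of up to 0.369% by the Wilson interval, and in 0.289% of those 1 kb away. Over all 30000 pooled regions these shares were 2.57% for GATA, 6.62% for TATA, 1.31% for Zelda and 0.263% for Hnf4.

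**Figure D4:**
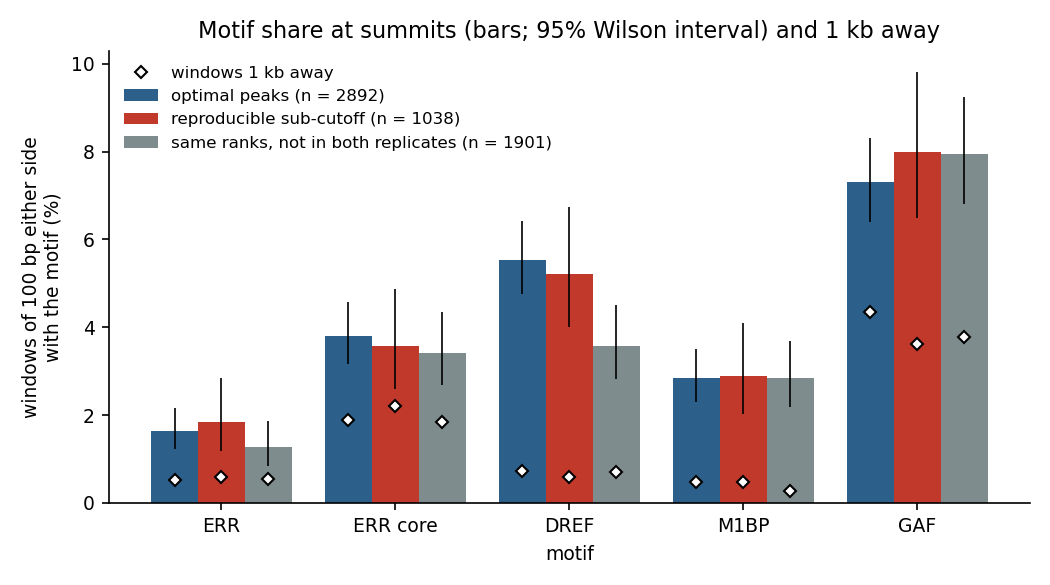
Percentage of windows of 100 bp on either side that held each motif at summits (bars, with 95% Wilson intervals) and 1 kb away (diamonds), in the optimal peaks, the sub-cutoff regions and the unrecovered regions of the same ranks. DREF's site was in 5.53%, 5.20% and 3.58% of summit windows.

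Within the sub-cutoff regions the motifs divided by place. The ERR site was in 5 of 627 promoter windows (0.797%) and in 14 of 411 elsewhere (3.41%). DREF's site showed the opposite, in 8.29% at promoters and 0.487% elsewhere, as did M1BP's, in 4.63% and 0.243%. GAF's was in 6.70% and 9.98%. In optimal peaks the ERR site was in 1.11% at promoters and 2.46% elsewhere, DREF's in 8.70% and 0.364%, M1BP's in 4.46% and 0.182%, and GAF's in 7.36% and 7.19%, so GAF's share there was nearly level between the places. These differences by place were not tested. Within 250 bp of the summits there were 36 ERR sites, at a median distance of 93 bp, and 33.3% of them were within 50 bp, whereas 80 sites at optimal peaks had a median distance of 66 bp with 46.3% within 50 bp.

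The regions with an ERR site and the highest pooled signals lay at varied genes. At the site printed for chinmo, a transcription factor gene of neuronal timing, the pooled signal was 67.0, with 36.6 in replicate 2 and 29.4 in replicate 3, at an intergenic summit 3 bp from the centre of the motif (2L, 1636364 to 1636767). The intronic region of CAH3, encoding a carbonic anhydrase, had 65.3 pooled, with 34.2 in each replicate, and a site 29 bp from the summit (X, 8682044 to 8682447). In the intron of ftz-f1, a nuclear receptor gene of the ecdysone cascade, the region had 64.5 pooled, 36.4 in replicate 2 and 27.6 in replicate 3 (3L, 18798785 to 18799188). An intronic region of Tret1-1, encoding a trehalose transporter, had 63.3 pooled, 39.1 and 23.1 (2R, 11666699 to 11667102). This Tret1-1 region also lay in the body of Roc2, and an optimal peak was 904 bp away. Of the 10 highest with an ERR site, those of PGRP-LD, CG1677 and Hap40 were at promoters.

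The highest sub-cutoff regions of all lay at genes of many functions. After the CG42258 intron came introns of Tlk (X, 3773280 to 3773683; 69.2 pooled, 44.3 in replicate 2 and 26.1 in replicate 3), a chromatin-related kinase gene, and Snoo (2L, 7964570 to 7964973; 69.2, 29.9 and 40.2), a Ski-family repressor gene. Of the 20 highest, promoter regions included those of Bsg (2L, 8088168 to 8088571; 69.1, 34.1 and 33.9), a cell surface immunoglobulin protein gene, and lost (69.0, 32.2 and 36.8). A region 588 bp from the start of ph-d, a Polycomb repressor gene, was strong in both replicates (X, 2123672 to 2124075; 68.9, 46.2 and 36.5). Its replicate 3 summit lay 158 bp from the pooled one. A region 3714 bp from the start of GATAe, a gut GATA factor gene, had 69.0, 37.0 and 33.8.

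At promoters, the sub-cutoff regions added 660 genes to those with an optimal peak. Of 13968 protein-coding genes, 732 (5.24%) had a sub-cutoff summit within 500 bp of a start, and 2105 (15.1%) had an optimal summit there. Among the 11863 genes without an optimal summit, 660 (5.56%) had a sub-cutoff one, while 72 genes had both kinds. Those shares are the background for the lists that follow, which were chosen with earlier results of these data known and are described by counts alone. Several genes shared a region in 177 (29.9%) of the 591 cases near a protein-coding start, so a region cannot always be given to a single gene. The lists together held 688 genes, of which 46 (6.69%) had a sub-cutoff promoter region, 42 of them without an optimal peak. For the lists, a gene without an optimal peak had no optimal summit within 500 bp of a start. An optimal peak may still lie nearby.

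The sugar metabolism lists, of the programme ERR is best known for, left little room for further genes, since 2 genes in each of the 3 lists lacked an optimal promoter peak and none of these had a sub-cutoff region. With 5.56% of all such genes as background, that count is uninformative. Of 14 glycolysis genes 12 already had an optimal promoter peak, and the 1 with a sub-cutoff region, Eno (enolase), was among these 12. The Eno region (2L, 1729646 to 1730049) lay 212 bp from the start of Eno and closer to that of CG31937, at 39 bp. Its signal was 63.8 pooled, 30.8 in replicate 2 and 39.4 in replicate 3. Of 10 trehalose and glycogen genes 8 had an optimal promoter peak and none a sub-cutoff one. In the pentose phosphate list, 1 of 6 genes had a sub-cutoff region, the transketolase gene CG8036, which also had an optimal peak.

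Genes of the mitochondrion were present in small numbers. Of 23 genes in the tricarboxylic acid cycle list, 12 had no optimal promoter peak. A sub-cutoff promoter region lay at 2 of these 12 (16.7%), beside 5.56% of all such genes, a share that rests on few genes. These were kdn, encoding citrate synthase (X, 6352119 to 6352522; 61.5 pooled, 38.1 in replicate 2 and 28.6 in replicate 3), and ScsbetaA, encoding a succinyl-CoA synthetase subunit (3R, 8939009 to 8939412; 60.1, 28.6 and 29.9). Of 88 oxidative phosphorylation genes 4 had one, none of them with an optimal peak. That is 5.48% of the 73 without an optimal peak, close to the 5.56% of all such genes. They were RFeSP, the Rieske iron-sulphur subunit of complex III (62.7, 30.4 and 35.9), and the complex I genes ND-15 (60.6, 44.9 and 23.8), ND-49 (59.6, 35.4 and 27.5) and ND-B17 (55.2, 32.9 and 25.1). The ND-49 window (4, 570094 to 570497) held an ERR site and that of ND-B17 (2L, 15750921 to 15751324) an M1BP site. The summit lay 494 bp from the start at ND-49 and 453 bp at ScsbetaA, close to the promoter limit of 500 bp. The ND-15 region was also near the start of Pus10.

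The gene of the fly PGC-1 homologue, srl, had a sub-cutoff region 86 bp from its start (FBgn0037248; 3R, 4429047 to 4429450). Its signal was 67.7 in the pooled list, 37.2 in replicate 2 at rank 3512 and 37.8 in replicate 3 at rank 2071. Its window held an M1BP site, printed above, and no ERR site. It was 1 of 17 genes in the list of mitochondrial import, dynamics and transcription, in which 1 other gene had an optimal promoter peak. That is 5.88% of the list, beside 5.24% of all genes. For the 16 genes without an optimal peak it is 6.25%, beside 5.56% of all such genes. Both list shares rest on 1 gene.

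Ribosomal protein genes were the most numerous among the lists. Of 93 cytosolic ribosomal protein genes, 48 had an optimal promoter peak, and 10 of the other 45 (22.2%) had a sub-cutoff region, beside 5.56% of all genes without an optimal peak. The highest was at RpL35A (3R, 5466886 to 5467289), 13 bp from the start, with 69.1 pooled, 29.9 in replicate 2 and 44.4 in replicate 3. RpS19a followed (66.3, 44.5 and 24.98), then RpS24 (64.3, 39.1 and 24.1) and RpS23 (64.2, 37.1 and 25.2). Which replicate had the higher rank therefore differed from gene to gene. Of 73 mitochondrial ribosomal protein genes, 6 had a sub-cutoff region and no optimal peak (11.3% of 53), led by mRpL52 (2R, 7674187 to 7674590; 68.9, 42.3 and 25.7). For all 6 of these the region was also near another gene's start.

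Among lipid and redox genes, 3 had a sub-cutoff promoter region and no optimal peak at the promoter. Of 13 genes of lipid synthesis and storage 2 had one, which is 22.2% of the 9 without an optimal peak. The share over all such genes was 5.56%, and the list share rests on 2 genes. The first was bmm, encoding the brummer triglyceride lipase (3L, 14786048 to 14786451; 67.6 pooled, 39.4 in replicate 2 and 31.5 in replicate 3), and the other ACC, given above with 66.1 pooled. A second ACC region (2R, 7989138 to 7989541) had 59.0 pooled, 28.5 and 34.4. An optimal peak lay 790 bp from the bmm region, 3907 bp from the first ACC region and 433 bp from the second. No optimal summit was within 500 bp of a start of bmm or ACC. Gclc, the catalytic subunit gene of glutamate-cysteine ligase in glutathione synthesis (X, 8115779 to 8116182), had 64.9, 41.2 and 31.8. Gclc was 1 of 19 genes (5.26%) in the amino acid and glutathione list, close to the 5.24% of all genes. Among the 12 genes of that list without an optimal peak it made up 8.33%, beside 5.56% of all such genes. That share rests on 1 gene. Of 12 fatty acid oxidation genes 1 (8.33%) had a region, beside 5.24% of all genes. This was whd (carnitine palmitoyltransferase), which also had an optimal peak.

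Genes of protein turnover and the cell cycle were also among those with a sub-cutoff promoter region. Of 22 cell cycle genes 3 had one without an optimal peak, namely CycB3 (63.7 pooled, 38.3 in replicate 2 and 23.8 in replicate 3), CycA (54.7, 33.3 and 24.6), whose window held a DREF site, and E2f1 (54.2, 30.5 and 23.3). The first pair encode mitotic cyclins, and E2f1 encodes a transcription factor of S phase genes. Of 48 proteasome genes 2 had one, Rpt2 (62.5, 33.2 and 24.5) and Rpt3 (46.6, 34.2 and 24.0). Of 15 Polycomb and trithorax group genes 2 had one, esc (60.3, 32.0 and 28.7) and Pc (53.6, 30.2 and 25.4), both encoding Polycomb repressor subunits. Of 20 autophagy genes 2 had one, Atg18b (63.3, 35.6 and 30.6) and Atg6 (54.6, 34.9 and 29.9). Among genes without an optimal peak, the shares were 16.7% (cell cycle), 5.26% (proteasome), 20% (Polycomb and trithorax) and 11.8% (autophagy). The share over all such genes was 5.56%. Each list share rests on 2 or 3 genes, and no list was tested.

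The other lists gave 1 or 2 genes each or none. Mitochondrial tRNA synthetase genes PheRS-m (65.8 pooled, 34.0 in replicate 2 and 31.3 in replicate 3), with a DREF site, and LeuRS-m (60.3, 43.5 and 23.9) were 2 of 33 synthetase genes. Of 44 translation initiation factor genes 1 had a region, eIF4G2 (58.5, 33.0 and 24.8). In the vacuolar ATPase list of 33 genes VhaAC39-1 (59.8, 32.8 and 31.0) had one, and Vha100-2 (65.8, 31.9 and 40.8) had one beside an optimal peak. The hypoxia and insulin list of 17 genes gave tgo, the partner subunit of the hypoxia factor (64.1, 29.2 and 31.5), with an M1BP site. Among genes without an optimal peak, the shares were 8% (tRNA synthetases), 3.23% (initiation factors), 3.85% (vacuolar ATPase) and 12.5% (hypoxia and insulin). The share over all such genes was 5.56%, and each list share rests on 1 or 2 genes.

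Of the lists of embryonic tissue markers, 2 had 1 gene each with a region at the promoter, counts too small to read against the 5.24% of all genes. Tm1, a muscle tropomyosin gene (65.2 pooled, 27.6 in replicate 2 and 37.6 in replicate 3), was 1 of 12 muscle genes, and vvl, a transcription factor gene of trachea and epidermis (61.9, 38.4 and 24.3), 1 of 8 in its list. No gene of the neuron and glia list (11), fat body and blood (10), germ line (7), midgut (6) or Hox and patterning (21) had a sub-cutoff promoter region. None of 21 nuclear receptor genes had one, and 8 had an optimal promoter peak.

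**Figure D5:**
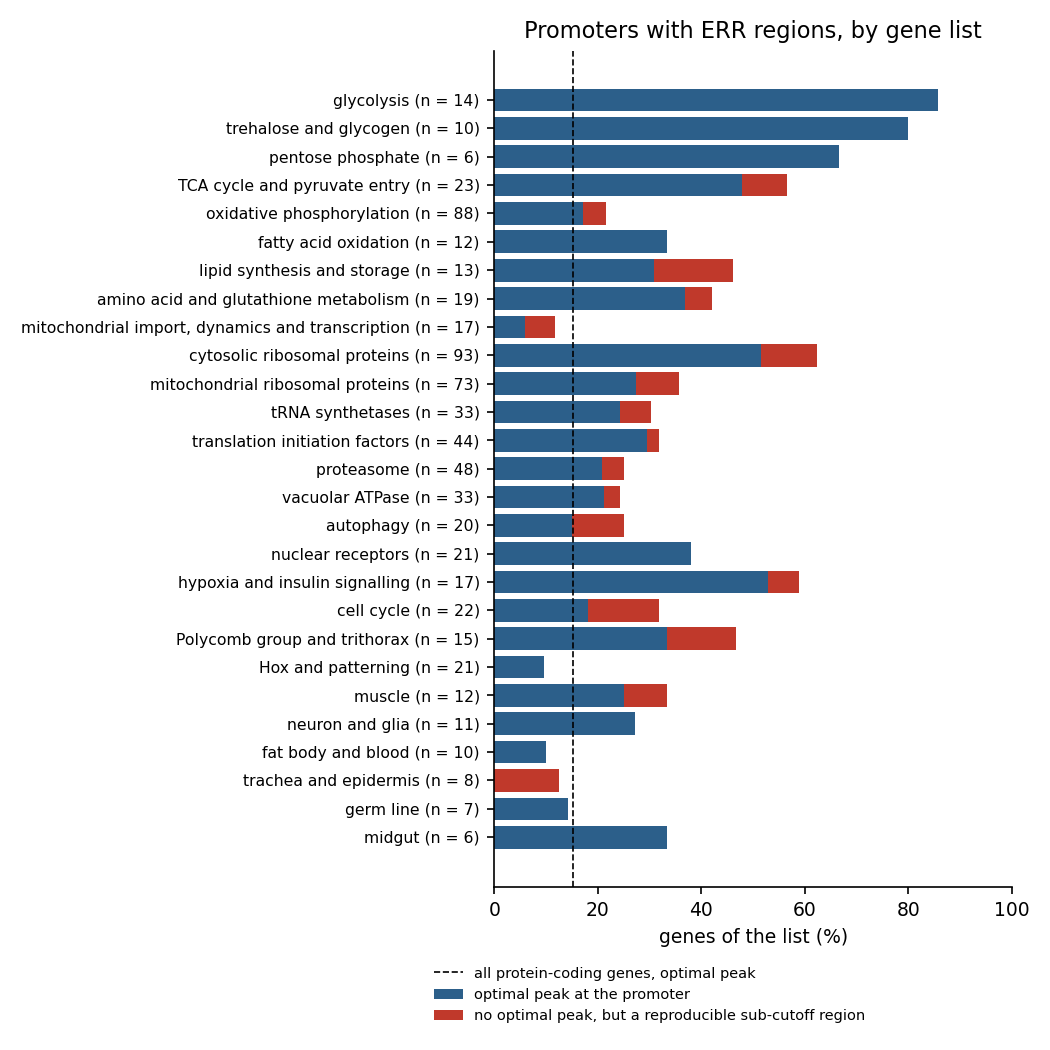
Percentage of genes in each list with an optimal peak within 500 bp of a start (blue) and, added to it, the percentage with a sub-cutoff region and no optimal peak (red). The dashed line is the 15.1% of all protein-coding genes with an optimal promoter peak; the red bars are to be read beside 5.56% of all genes without an optimal peak.

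Inside gene bodies, several regulatory genes held more than 1 region. A sub-cutoff summit lay in the body of 621 of 13968 protein-coding genes (4.45%), with no account taken of gene length, and 89 genes held 2 or more. Eip75B, an ecdysone-induced nuclear receptor gene (3L, 17950953 to 18064696), held 5 beside 8 optimal peaks, at pooled signals of 46.8 to 65.1. The same number lay in ftz-f1, in RapGAP1, which encodes a GTPase activator, and in tara. Pdp1, a leucine-zipper factor gene, and pnt, an Ets factor gene, were among those with 4. Some of these regions overlapped one another and share 1 replicate region, as 2 in ftz-f1 did, with 37.7 in replicate 2 and 25.4 in replicate 3 for both.

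Nuclear receptor genes held 14 sub-cutoff summits in their bodies. These lay in 4 of the 21 genes (19.0%), beside 4.45% of all protein-coding genes, with gene length not matched. There were 5 in Eip75B, 5 in ftz-f1, 3 in EcR, the ecdysone receptor gene, and 1 in Hr4. The 14 are not all separate sites, since the ftz-f1 regions include the overlapping ones described above. One of the EcR summits was within 500 bp of the start of a tRNA gene. Another EcR region (2R, 6133172 to 6133575) was among the 23 that ranked high in both replicates, with 44.7 in replicate 2 and 34.0 in replicate 3, although its pooled signal was 53.3. The matched summits lay 83 bp from the pooled one in replicate 2 and 229 bp in replicate 3, so they need not mark 1 site. The Hr4 region lay in a 3' UTR (X, 2005816 to 2006219), with 63.4 pooled, 32.1 and 28.0.

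Gene bodies in the other lists ranged widely around the 4.45% of all genes. Of 14 glycolysis genes, 33 tRNA synthetase genes, 11 neuron and glia genes and 10 fat body and blood genes none held a sub-cutoff summit, and 2 of 88 oxidative phosphorylation genes did. The lists with the highest shares were hypoxia and insulin (29.4%) and trehalose and glycogen, and their genes are named here after their values were seen. Of 17 hypoxia and insulin genes 5 held 1 each. They were Akt, a kinase gene of the insulin pathway (3R, 16099710 to 16100113; 65.5 pooled, 29.1 in replicate 2 and 43.2 in replicate 3), InR, the insulin receptor gene (59.6, 31.4 and 31.0), S6k (67.3, 32.2 and 35.5), REPTOR (62.8, 45.1 and 28.0) and sima, the fly HIF alpha gene (63.2, 40.2 and 28.2). Of 10 trehalose and glycogen genes 3 held 1 each, in introns of Glyp, glycogen phosphorylase (2L, 2132960 to 2133363; 66.8, 28.8 and 43.5), Treh, trehalase (62.9, 34.1 and 28.2), and Tret1-1. The Glyp region lay 413 bp from an optimal peak, the Tret1-1 region 904 bp and the Akt region 1711 bp. The Tret1-1 region also lay in the body of Roc2. Gene length was not matched in these counts.

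Many of the regions stood near an optimal peak. Within 1 kb of one lay 156 (15.0%), within 2 kb 256 (24.7%) and within 5 kb 447 (43.1%). The unrecovered regions had 12.1%, 22.0% and 41.3%, and optimal peaks, measured to their own nearest neighbour, 22.2%, 31.5% and 48.9%. The nearest or host gene also had an optimal summit for 400 regions (38.5%) and for 39.2% of the unrecovered ones. These shares are descriptions and were not tested.

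Density varied little over the large chromosome arms. There were 8.29 per Mb on 2L (exact Poisson interval 7.17 to 9.54), 8.07 on 2R, 7.65 on 3L, 7.64 on 3R and 7.43 on X (6.37 to 8.62). Chromosome 4 had 4 regions, 2.97 per Mb (0.808 to 7.60), beside 8.90 per Mb for optimal peaks. The median GC content of the windows was 42.3%, against 40.3% in optimal peaks and 42.3% in the unrecovered regions. The same rule applied to the dm3 lists, with 2930 optimal peaks, gave 1012 regions, which were not matched one by one to those on dm6.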

How the data were processed

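The files are narrowPeak lists deposited by the authors. Per the file notes, each build had a list of 30000 relaxed regions per replicate, a list of the same length from the pooled replicates, and an optimal set that passed an irreproducible discovery rate (IDR) threshold. Per the file notes the pooled list was derived from the alignments of both replicates and 1 further file. Signal is the score the authors' peak caller gave a region, deposited without scaling between lists, and a −log10 q-value was deposited beside it. Which aligner and caller were run is, with the versions, not given in the sources used here, and reads were not re-aligned. The labels name a possible control experiment, which was not used here.

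Read depth is unknown because the lists hold no read counts. Intervals on shares are 95% Wilson intervals over regions, and those on densities are exact Poisson intervals at the same level. Both cover counting error only. The optimal set and the top 2892 pooled regions had 2884 distinct intervals in common, by chromosome, start and end. An interval listed more than once was counted once, so the number of differing entries cannot be read from this.

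Positions are 1-based on dm6, with genes from Ensembl release 115 and bases from the NCBI release 6 genome. A promoter was the 500 bp on either side of a transcript start, and other summits were assigned, by the first that applied, to 5' UTR, coding exon, 3' UTR, intron, or the remaining exonic and intergenic sequence. Motifs were searched as exact letters on both strands in windows of 100 bp on either side of a summit. Shares were compared by two-sided Fisher's exact tests in scipy 1.17.1, with Benjamini-Hochberg adjustment over 6 location classes or 16 motifs and a threshold of 0.05. Python 3.11.15, numpy 2.4.6, pandas 2.3.3 and matplotlib 3.10.9 were used, and the overlap, location, motif and test steps were tested on simulated data.

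The members, gene lists, motifs and tests were chosen with earlier results of these data known. The genes named are those nearest the 20 highest regions, nearest the 10 highest with an ERR or a DREF site, up to 4 of each list with the highest promoter region, those at the ends of the band and those with the most regions in their bodies; others were chosen after their values were seen. Of the listed symbols, 15 matched no single gene model and were left out. Alternatives were other overlap, rank, promoter and window sizes, each replicate alone and distance from optimal peaks.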

Additional observations from a re-analysis of the deposited data

How the results depend on the processing

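Leaving out 1 replicate gave 1819 to 2025 regions in place of 1038, and the top 4000 or 10000 regions of each replicate gave 198 or 2251, so the number rests on these limits. Of the 6 location classes, 1 passed the test against optimal peaks. This count was 0 under reciprocal overlap of 50%, summits within 100 bp, the top 4000, the higher-signal 50%, promoters of 1000 bp and regions over 2 kb from optimal peaks, 2 with promoters of 200 bp, 3 with the top 10000, and 2 to 3 with 1 replicate left out. Against the unrecovered regions, 3 classes passed, but 1 with the top 4000, 0 with the top 10000, 0 to 3 with 1 replicate left out, 1 at ranks up to 4446 and 0 past 4446. The division by rank, and the exclusion of the 5 regions sharing a replicate region with an optimal peak, were added after seeing the data. Against the unrecovered regions 1 motif passed with windows of 250 bp on either side. Of the listed genes, 6.69% had a sub-cutoff promoter region, and this became 4.36% with summits within 100 bp, 1.16% with the top 4000, 14.7% with the top 10000, 3.34% in the higher-signal 50%, and 9.88 to 14.5% with 1 replicate left out.

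Against optimal peaks, odds ratios that crossed 1 were as follows. The promoter ratio became 1.09 with the top 4000, 1.04 in the higher-signal 50%, 1.01 with promoters of 200 bp and 1.05 over 2 kb from optimal peaks. Under the same settings the intron ratio became 0.873, 0.921, 0.958 and 0.906. The coding ratio became 0 with the top 4000 and 0.796 in the higher-signal 50%. DREF's became 1.20 with the top 4000, 1.08 in the higher-signal 50%, 1.08 with windows of 250 bp on either side and 1.34 outside promoters. That of ERR became 0.845 with the top 10000, 0.941 without replicate 3 (1.02 without replicate 2), 0.874 with windows of 50 bp on either side and 0.713 at promoters. Against the unrecovered regions, ERR's became 0.787 with the top 10000 and DREF's 0.747 outside promoters. Without replicate 2 the promoter, intron, coding and DREF ratios there became 0.964, 1.11, 1.17 and 0.982, and without replicate 3 they were 1.58, 0.678, 0.293 and 1.62. The causes were not tested.

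Of 75 alternatives for the main counts, 50 kept them within 1.5 times, and of 131 for single values, 81 were kept. For odds ratios, kept meant the same direction and side of the threshold. For the number of genes with a sub-cutoff promoter region it meant within 1.5 times. No paired analysis was possible because there was 1 group. With 2 replicates and no read counts, depth limits cannot be given.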

Other observations

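Sub-cutoff regions also lay at starts of genes that make no protein. Summits within 500 bp of a tRNA gene start numbered 9 of 1038 (0.867%, 95% Wilson interval 0.457 to 1.64), beside 9 of 2892 optimal peaks (0.311%, 0.164 to 0.590) and 13 of the 1901 unrecovered regions (0.684%). Starts of ncRNA genes were within that distance of 53 sub-cutoff summits (5.11%) and of 4.53% of optimal ones, and 4 summits lay near snoRNA starts. In all, 36 promoter regions were near no protein-coding start. These shares were not tested.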
